A study of Drosophila melanogaster with 9 samples.

Results

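Oxidative phosphorylation genes were compared between uninjured and injured *Drosophila* larvae. The members were all genes that have a probe set of their own and a symbol starting with *ND-* (NADH dehydrogenase, complex I), *Sdh* (succinate dehydrogenase, complex II), *UQCR* (ubiquinol-cytochrome c reductase, complex III), *COX* (cytochrome c oxidase, complex IV) or *ATPsyn* (ATP synthase, complex V). A probe set is the group of short array probes that reads 1 transcript. Of 18769 probe sets tested, 81 carried such a symbol, and they covered 73 genes, with 32 in complex I, 7 in complex II, 6 in complex III, 14 in complex IV and 14 in complex V. A gene with several probe sets was represented by the one with the highest mean over the 9 arrays. The 73 genes comprised 48 subunit genes with a mean log2 signal of 8 or more, 21 second gene copies whose symbol is that of a subunit with L added, 3 subunit genes with a dim signal (*ND-B12*, *ND-B8* and *UQCR-11*) and *Sdhaf3*, which encodes an assembly factor of complex II. Another 18 genes of these families, among them *SdhA*, *UQCR-C1*, *UQCR-C2*, *ND-49*, *ND-23* and *COX6B*, had no probe set of their own and were not analysed here.

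All larvae were 3rd instar larvae of the *y w* strain, which carries the body and eye colour mutations *yellow* and *white*, and the RNA came from the whole animal. The 9 Affymetrix Drosophila Genome 2.0 arrays formed 3 groups of 3. Untreated larvae were taken at 0 h, larvae of the clean injury group 4 h after a prick with a tungsten needle, and larvae of the pinching group 4 h after a squeeze of the body with forceps. Per the study's methods, larvae to be pricked lay on cold agar and those to be pinched were handled in water, and larvae of both kinds were then kept on apple juice agar. These methods describe pricking for infection with bacteria, and the clean injury of the arrays is not described apart from it. Uninjured larvae of the 4 h time point were not analysed here, so injury, elapsed time, handling and change of food cannot be told apart in a comparison with untreated larvae. Both injury groups were set against the same 3 untreated arrays.

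The 5 complexes sit in the inner mitochondrial membrane. Complexes I and II take electrons from NADH and from succinate, complexes III and IV pass them on to oxygen, and the proton gradient built up on the way lets complex V make ATP. Most subunits are encoded in the nucleus, and their transcripts are abundant in muscle and other tissues with a high demand for ATP. In *Drosophila* many subunits have a second gene copy, and many of these copies are known to be expressed mainly in the testis.

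The deposited values are log2 signals, and the median over all probe sets lay between 4.94 and 5.08 on the 9 arrays. Genes of the larval tissues were present in every group, with a per-array median log2 signal from 11.52 to 12.30 over 8 muscle markers, from 13.14 to 13.63 over 4 fat body markers and from 9.82 to 10.48 over 8 midgut markers. The table holds no detection calls, so that a dim signal may be background, and the number of arrays limits the precision. Since RNA of whole larvae was measured, fewer cells of a type and less RNA per cell cannot be told apart. Differences were tested with limma over all 18769 probe sets, and a gene was called higher or lower at a Benjamini-Hochberg adjusted p under 0.05. The labels call the arrays of a group biological replicates, and p-values set a difference of group means against the spread between such arrays.

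Subunit genes of all 5 complexes had lower signals after clean injury. Of the 73 genes, 33 were called lower, none was called higher and 40 did not pass the test. Over all probe sets, 4.93% were called lower and 5.22% higher. The median log2 change of the 73 genes was -0.52, a change of -30.4% on the linear scale, and that of all probe sets was -0.04. The signals of 49 members lay below all untreated arrays on each clean injury array, which held for 19.1% of all probe sets. Among the 48 subunit genes alone, 32 were lower, and their log2 changes lay between -0.86 and -0.31 with a median of -0.62, or -35.0%. For comparison, 2806 probe sets of all kinds also had a mean log2 signal of 8 or more, 14.2% of them were called lower, and their median log2 change was 0.06 with quartiles of -0.32 and 0.36.

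Pinching was followed by lower signals of the same direction in all 48 subunit genes, and fewer of them passed the test. Of the 73 genes, 17 were called lower, none was called higher and 56 did not pass. The share called among all probe sets was 4.99% for lower and 4.21% for higher. The 73 genes had a median log2 change of -0.44, or -26.1%, against -0.02 over all probe sets. No overlap with the untreated arrays, with each pinching array below, was found for 39 members and for 14.9% of all probe sets. The 48 subunit genes, of which 16 were lower, had changes from -0.78 to -0.19 and a median of -0.52, or -30.1%. Of all probe sets with a mean of 8 or more, 13.9% were called lower after pinching, with a median change of 0.04.

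The comparison of the injuries with each other showed no called difference among these genes. Between pinching and clean injury, 0 of 73 members were called higher or lower by limma, 0 passed an unadjusted p of 0.05, and over all probe sets 0% were called higher and 0.00533% lower. The log2 difference, pinching minus clean injury, was above 0 for 43 of the 48 subunit genes, with a median of 0.09 and a range from -0.08 to 0.28. It was above 0 for 9063 of all 18769 probe sets and for 1181 of the 2806 with a mean of 8 or more. In the fit without a block the median of the subunit genes was -0.04 when pinching array 3 was removed and clean injury array 3 was kept. In the pairs numbered 1, 2 and 3 their median was -0.02, 0.13 and 0.18. The larger number of calls after clean injury is therefore not a tested difference between the injuries.

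**Figure D1:**
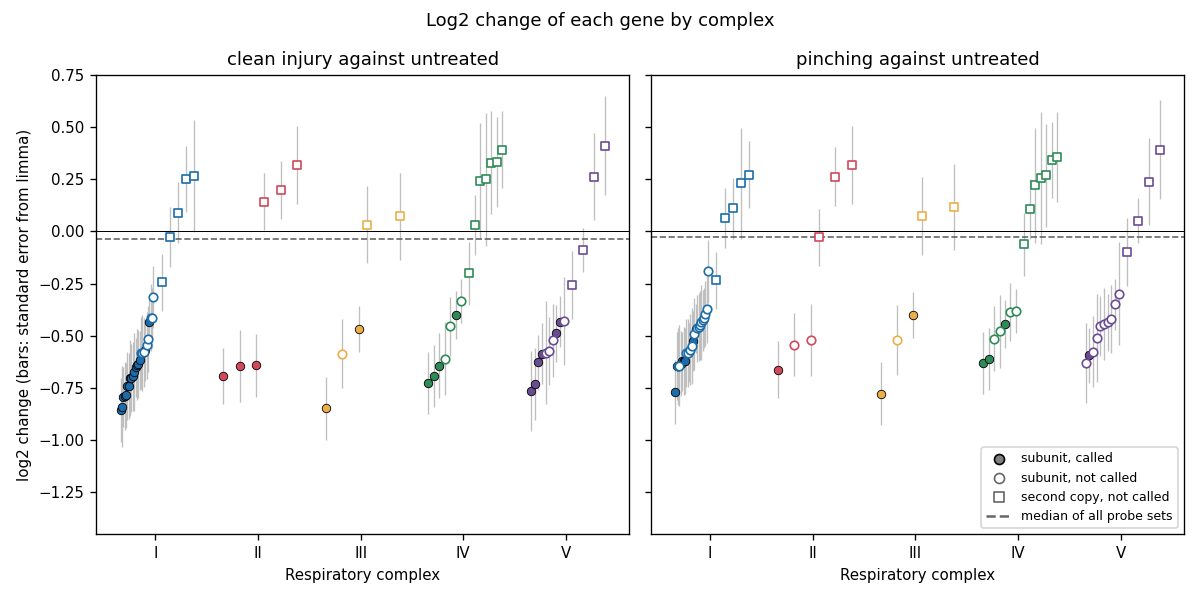
Log2 change of each of the 48 subunit genes (circles) and 21 second copies (squares) against untreated larvae, by respiratory complex, with bars of 1 standard error from limma; filled symbols were called at an adjusted p under 0.05 and the dashed line is the median of all probe sets. All circles lie below 0 in both panels, with 32 filled after clean injury and 16 after pinching, and no square is filled.

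Arrays with the same replicate number deviated from their group means together, and a fit with the number as a block gave more calls. With this block 49 of the 73 genes were lower after clean injury and 47 after pinching, where 8.58% and 8.76% of all probe sets were called lower. The 48 subunit genes accounted for 47 and 46 of these calls. Of the 2806 probe sets with a mean of 8 or more, 604 and 624 were lower with the block. Each subunit gene was below the untreated array of the same number in 3 of 3 pairs after clean injury and in 3 of 3 pairs after pinching, as were 29.2% and 26.2% of all probe sets. The median difference over the subunit genes was -0.73, -0.63 and -0.47 on the log2 scale in the clean injury pairs numbered 1, 2 and 3. In the pinching pairs it was -0.75, -0.49 and -0.28.

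The arrays were not alike in the size of the shift. The median log2 signal of the 48 subunit genes was 10.91, 10.68 and 10.87 on the untreated arrays, 10.05, 9.98 and 10.38 on the clean injury arrays, and 10.05, 10.15 and 10.58 on the pinching arrays. All 6 injury arrays were thus below all 3 untreated arrays, and the injury arrays numbered 3 were nearest to them. The lowest of the 9 signals was found on clean injury array 2 for 33 subunit genes and on pinching array 1 for 11, and the highest on untreated array 1 for 27 and on untreated array 3 for 21.

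**Figure D2:**
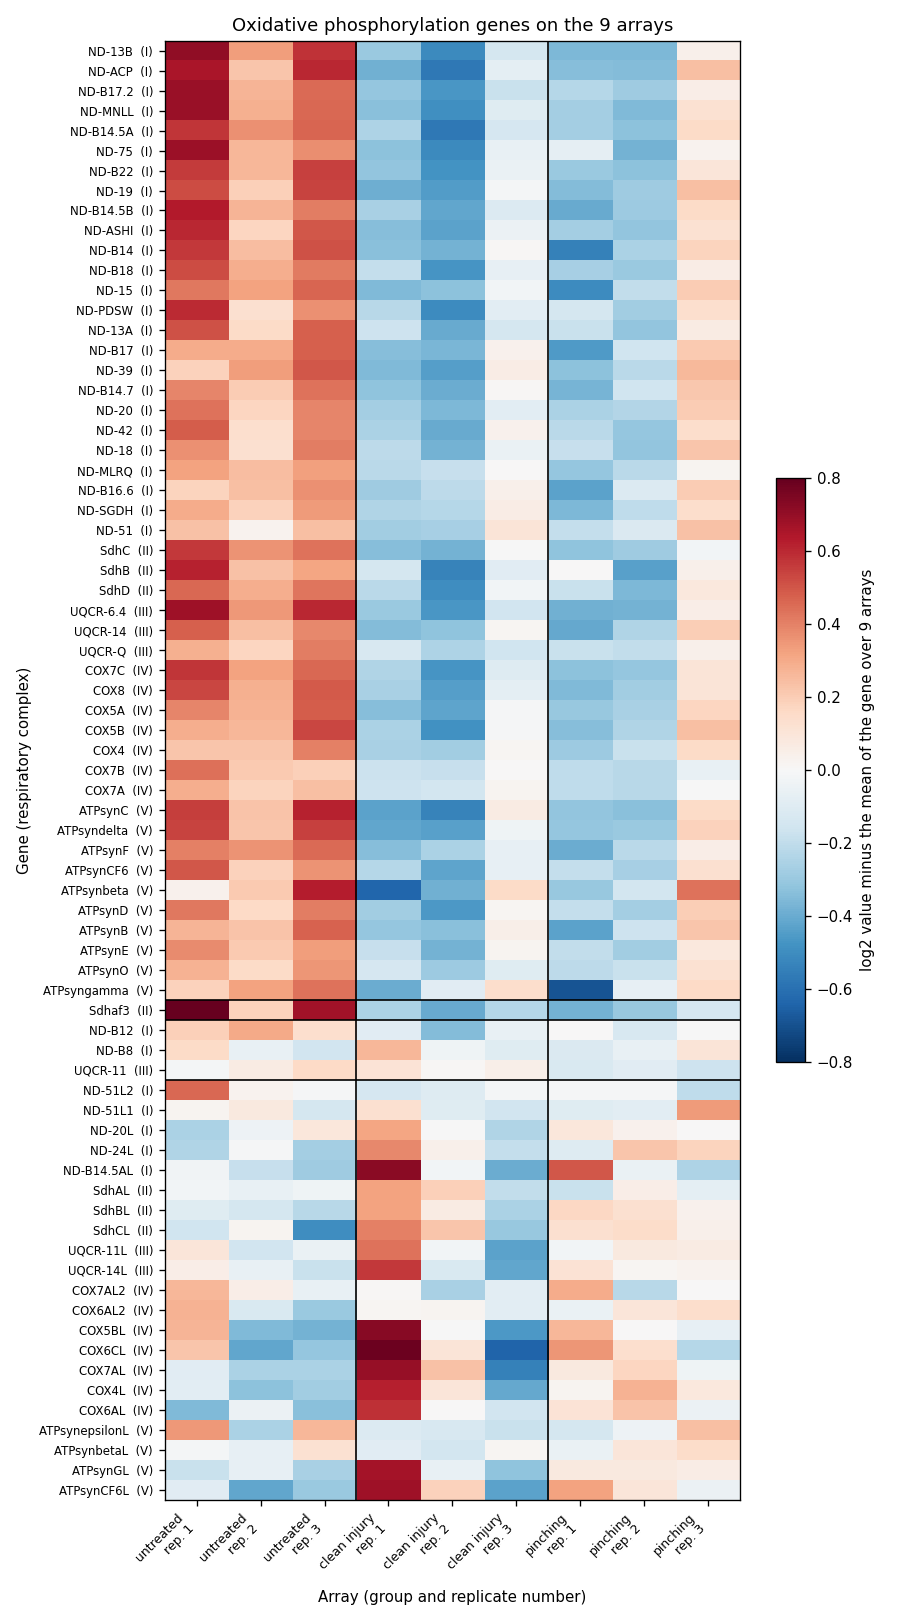
Log2 signal of each of the 73 genes on each of the 9 arrays, minus the mean of that gene over the 9 arrays, with genes in rows (the complex in brackets), arrays in columns and horizontal lines between subunit genes, *Sdhaf3*, dim subunit genes and second copies. The upper block of 48 subunit genes is red on the 3 untreated arrays and mostly blue after both injuries, with pale colours on the injury arrays numbered 3, whereas most of the 21 second copies at the bottom are highest on clean injury array 1.

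Complex I, which oxidizes NADH, held the largest number of members. Of its 25 subunit genes, 17 were lower after clean injury and 9 after pinching, with median log2 changes of -0.64 and -0.55. The block raised this to 24 in each comparison. *ND-13B*, an accessory subunit of the arm that reaches into the matrix, had log2 signals of 9.99, 9.62 and 9.86 on the untreated arrays, 8.98, 8.77 and 9.14 after clean injury, and 8.92, 8.92 and 9.32 after pinching. All its injury arrays lay below the untreated ones. It was 1.81-fold lower after clean injury, a log2 change of -0.86 with a standard error of 0.15 (limma, adjusted p = 0.00694), and 1.70-fold lower after pinching, a log2 change of -0.77 (limma, adjusted p = 0.0123), the largest changes among the subunits of complex I in both comparisons. When each array in turn was removed, its call held in 9 of 9 fits after clean injury and in 6 of 9 after pinching.

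*ND-75*, the large iron-sulfur subunit at the entry of the electron path, stood at 9.54, 9.13 and 9.23 in untreated larvae, at 8.53, 8.35 and 8.80 after clean injury and at 8.78, 8.48 and 8.89 after pinching. The groups did not overlap, and the log2 change was -0.74 after clean injury (adjusted p = 0.0179 from limma) and -0.58 after pinching, which did not pass (adjusted p = 0.0508, or 0.00973 with the replicate block). *ND-51*, the subunit that binds NADH, had the smallest changes among the 25 subunit genes with a mean signal of 8 or more. Its signals were 10.51, 10.30 and 10.51 untreated, 9.99, 10.01 and 10.37 after clean injury, and 10.08, 10.16 and 10.50 after pinching, so that the groups overlapped on the arrays numbered 3. Its log2 changes of -0.31 and -0.19 did not pass the test in limma (adjusted p = 0.223 and 0.479), nor with the block (adjusted p = 0.0821 and 0.284).

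The other complex I genes called lower after both injuries were *ND-B17.2* (log2 changes -0.79 and -0.62), *ND-MNLL* (-0.79 and -0.65), *ND-B14.5A* (-0.79 and -0.62), *ND-B22* (-0.74 and -0.63), *ND-B14.5B* (-0.70 and -0.62), *ND-B18* (-0.65 and -0.58), *ND-13A* (-0.62 and -0.52) and *ND-MLRQ* (-0.43 and -0.47). They encode accessory subunits, and the mammalian counterpart of *ND-MLRQ* has since been assigned to complex IV. Those called after clean injury and not after pinching in the fit without a block were *ND-ACP*, the mitochondrial acyl carrier protein (-0.84, and -0.64 with adjusted p = 0.069 from limma), *ND-19* (-0.70), *ND-ASHI* (-0.69), *ND-B14* (-0.67), *ND-15* (-0.64), *ND-PDSW* (-0.63) and *ND-20* (-0.57), the last of which binds the terminal iron-sulfur cluster. The decrease spanned both arms of the complex. Of 10 subunit genes of the matrix arm 7 were lower after clean injury and 4 after pinching, with median changes of -0.65 and -0.55, and of 13 genes of the membrane arm 8 and 4 were lower, with medians of -0.64 and -0.55. *ND-42*, a membrane arm subunit, had log2 changes of -0.54 and -0.46 that did not pass (adjusted p = 0.0586 and 0.109 from limma, or 0.00824 and 0.02 with the block).

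Complex II, which also belongs to the tricarboxylic acid cycle, was represented by 3 subunit genes, and all were lower after clean injury. *SdhC*, a membrane anchor, had log2 signals of 10.89, 10.68 and 10.75 on the untreated arrays, 9.98, 9.94 and 10.32 after clean injury, and after pinching 10.30 on array 3 and no more than 10.04 on arrays 1 and 2. Its groups did not overlap, and it changed by -0.69 after clean injury (limma, standard error 0.14, adjusted p = 0.0106) and by -0.66 after pinching (adjusted p = 0.0135 from limma). *SdhB*, the iron-sulfur subunit, and *SdhD*, the other anchor, were lower after clean injury, both with a change of -0.64, whereas their changes of -0.52 and -0.54 after pinching did not pass (adjusted p = 0.0962 and 0.0504 from limma). With the block all 3 were lower after both injuries. *Sdhaf3*, whose product helps *SdhB* to mature, showed the largest change of all 73 genes. Its signals were 7.45, 6.78 and 7.27 untreated, 6.35, 6.20 and 6.37 after clean injury, and 6.22, 6.30 and 6.47 after pinching. Without overlap it was 1.82-fold lower after clean injury, with a log2 change of -0.86 and a standard error of 0.16 (limma, adjusted p = 0.00888), and 1.79-fold lower after pinching, with a log2 change of -0.84 (limma, adjusted p = 0.0104).

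In complex III, which passes electrons from ubiquinol to cytochrome c, *UQCR-6.4* changed most. This small subunit stood at 12.57, 12.24 and 12.50 on the untreated arrays, at 11.60, 11.43 and 11.74 after clean injury and at 11.51, 11.52 and 11.95 after pinching. No injury array reached the untreated level, and the gene was 1.80-fold lower after clean injury and 1.71-fold lower after pinching, log2 changes of -0.85 and -0.78 with a standard error of 0.15 (limma, adjusted p = 0.00669 and 0.0106). *UQCR-Q*, a ubiquinone-binding protein, was lower after both injuries, by -0.47 and -0.40, and *UQCR-14* had changes of -0.58 and -0.52 that did not pass (adjusted p = 0.0522 and 0.0864 from limma, or 0.012 and 0.0237 with the block). The dim *UQCR-11* gave log2 signals between 4.45 and 4.78 on all arrays and was not called.

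Complex IV reduces oxygen, and 4 of its 7 subunit genes were lower after clean injury and 3 after pinching, or 7 in each comparison with the block. *COX7C* showed the largest changes, with means of 12.13 ± 0.13 untreated, 11.41 ± 0.19 after clean injury and 11.50 ± 0.25 after pinching (SD, n = 3 arrays each). It was lower after both injuries (log2 changes -0.72 and -0.63, adjusted p = 0.0138 and 0.0263 from limma), as was *COX8* (-0.69 and -0.61). *COX7B* had log2 signals of 12.28, 12.05 and 12.03 untreated, 11.67, 11.65 and 11.84 after clean injury, and 11.63, 11.61 and 11.78 after pinching. It was also lower after both, with the smaller changes of -0.40 and -0.44 in this probe set, the brightest of its 3. *COX5A* was lower after clean injury (-0.64, adjusted p = 0.0272 from limma) and had a change of -0.51 after pinching (adjusted p = 0.0694). The 3 further subunits, *COX5B* (-0.61 and -0.48), *COX4* (-0.46 and -0.39) and *COX7A* (-0.33 and -0.38), did not pass without the block, with adjusted p from 0.0513 to 0.129. In all 7 genes every clean injury array and every pinching array was below every untreated array.

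Complex V, the ATP synthase, had 6 of 10 subunit genes called lower after clean injury and 1 after pinching, and 10 and 9 with the replicate block. That 1 gene was *ATPsynF* of the membrane part, with log2 signals of 12.85, 12.80 and 12.90 untreated, 12.10, 12.19 and 12.38 after clean injury, and 12.05, 12.23 and 12.50 after pinching. It changed by -0.63 (adjusted p = 0.0149 from limma) and by -0.59 (adjusted p = 0.0194 from limma). *ATPsynC*, the subunit of the rotating ring, changed most after clean injury (-0.76, adjusted p = 0.0314 from limma) and had a change of -0.63 after pinching (adjusted p = 0.0699). *ATPsyndelta* (-0.73), *ATPsynCF6* (-0.58), *ATPsynE* (-0.49) and *ATPsynO* (-0.43) were the others called after clean injury.

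The catalytic subunit gene *ATPsynbeta* had the largest standard error among the 10 subunit genes of complex V. Its log2 signals were 11.23, 11.40 and 11.82 on the untreated arrays, 10.56, 10.80 and 11.35 after clean injury, and 10.89, 11.05 and 11.62 after pinching. The groups overlapped, and in each group the array numbered 3 was highest and the array numbered 1 lowest. Its change of -0.58 after clean injury did not pass without the block (limma, standard error 0.25, adjusted p = 0.175) and passed with it (adjusted p = 0.00279), and after pinching the change was -0.30 (adjusted p = 0.505, or 0.0691 with the block). *ATPsyngamma*, the central stalk, had changes of -0.43 and -0.51 (adjusted p = 0.237 and 0.175 from limma) and passed only with the block. *ATPsynB* of the peripheral stalk (-0.52 and -0.45) and *ATPsynD* (-0.57 and -0.42) also passed only with the block.

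The 3 dim subunit genes gave no call. *ND-B8*, at log2 signals from 3.17 to 3.59, and *UQCR-11* overlapped between untreated and clean injury arrays. After pinching *ND-B8* overlapped as well, whereas all pinching arrays of *UQCR-11* lay below both other groups. The change of *UQCR-11* after pinching was -0.20 against untreated larvae (adjusted p = 0.249 from limma). *ND-B12* had 4.80 ± 0.09 in untreated larvae, 4.43 ± 0.16 after clean injury and 4.55 ± 0.08 after pinching (SD, n = 3 arrays each). Its injury arrays lay below all untreated arrays, with log2 changes of -0.37 and -0.25 (adjusted p = 0.063 and 0.21 from limma, or 0.0457 and 0.171 with the block). Where a gene had further probe sets, their changes had the same sign except in 1 case. The further probe sets of *ND-ACP* had changes of -0.92 and -0.69 after clean injury and of -0.75 and -0.70 after pinching, and all 4 values passed the test. A second probe set of *ATPsynbeta* had changes of -0.55 and -0.64, which did not pass (adjusted p = 0.193 and 0.147 from limma, or 0.00753 and 0.0039 with the block). The other bright probe set of *COX7B* had changes of -0.65 (adjusted p = 0.027 from limma) and -0.56, which did not pass (adjusted p = 0.055). The dim second probe set of *COX7C*, at a mean of 4.90 in untreated larvae, had changes of 0.25 and 0.24 and was not called.

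**Figure D3:**
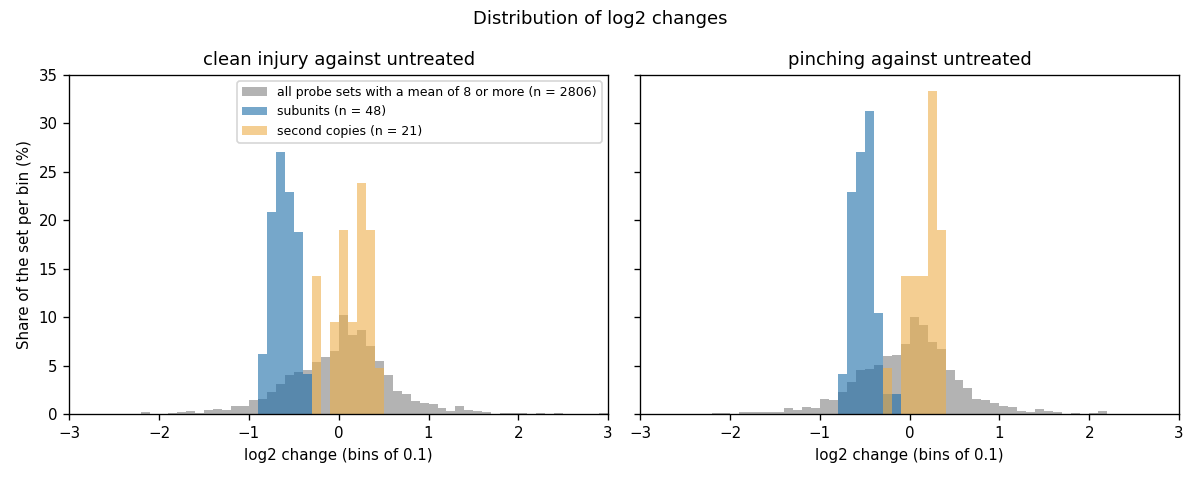
Share of each set of probe sets (in %) per bin of 0.1 log2 units of change against untreated larvae, for 2806 probe sets with a mean log2 signal of 8 or more (grey), the 48 subunit genes (blue) and the 21 second copies (orange). The subunit genes form a narrow peak around their medians of -0.62 and -0.52, while the grey distribution is centred near 0 and the second copies have medians of 0.20 and 0.22.

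The 21 second copies gave no call. None was higher or lower in any of the 3 comparisons, with or without the replicate block. At an unadjusted p of 0.05 with the block 3 were higher after each injury, as were 3092 and 2674 of all 18769 probe sets. Their median log2 changes were 0.20 after clean injury, with a range from -0.26 to 0.41, and 0.22 after pinching, with a range from -0.23 to 0.39. *ATPsynCF6L* had the highest log2 changes of the copies, with log2 signals of 6.46, 6.14 and 6.26 untreated, 7.23, 6.74 and 6.13 after clean injury, and 6.88, 6.65 and 6.51 after pinching. The clean injury arrays spanned the untreated ones, the pinching arrays lay above them, and the changes of 0.41 and 0.39 did not pass (adjusted p = 0.307 and 0.353 from limma). *COX4L* showed the same order, with 7.43, 7.19 and 7.23 untreated, 8.13, 7.61 and 7.10 after clean injury, and 7.53, 7.79 and 7.59 after pinching.

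Besides these, the highest changes were those of *COX6AL* (0.39 and 0.34), *COX7AL* (0.33 and 0.27) and *SdhCL* (0.32 and 0.32). Those of *ND-B14.5AL* (0.27 and 0.23), *ATPsynGL* (0.26 and 0.24), *ND-24L* (0.25 and 0.27), *COX6CL* (0.25 and 0.26), *COX5BL* (0.24 and 0.22) and *SdhBL* (0.20 and 0.26) were also above 0 in both comparisons. *SdhAL* (0.14 and -0.03), *ND-20L* (0.09 and 0.11), *UQCR-14L* (0.07 and 0.12), *UQCR-11L* (0.03 and 0.07), *COX6AL2* (0.03 and 0.11), *ND-51L1* (-0.03 and 0.06) and *ATPsynbetaL* (-0.09 and 0.05) were near 0. The lowest were *COX7AL2* (-0.20 and -0.06), *ND-51L2* (-0.24 and -0.23) and *ATPsynepsilonL* (-0.26 and -0.10). After pinching 7 of the 21 copies lay above all untreated arrays, against 12.7% of all probe sets, and after clean injury 0 of 21 did, against 15.4% of all probe sets.

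Most copies had a higher log2 change than the subunit they are named after. For 13 copies that subunit was among the 48 subunit genes, and the change of the copy minus the change of the subunit was above 0 in 13 pairs after clean injury and in 12 after pinching, with medians of 0.66 and 0.65 on the log2 scale. This comparison was chosen after the values were seen, some copies share a subunit, and in an exact two-sided permutation test of a single pair the smallest p that 3 against 3 arrays can give is 0.1. Since all 48 subunit genes had changes below 0, a copy without any change also gives a value above 0. The differences are therefore not separate evidence of a rise of the copies. The largest difference was that of *ND-B14.5AL* and *ND-B14.5A*, at 1.05 and 0.85, and the smallest that of *ND-51L2* and *ND-51*, at 0.07 and -0.04.

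The array on which most second copies were highest was also that of testis genes. Of the 21 copies, 15 were highest on clean injury array 1 and 12 were lowest on clean injury array 3. The 7 *Mst* genes, which encode sperm proteins, were all highest on clean injury array 1, and their median log2 signal was 8.31, 8.14 and 7.95 on the untreated arrays. It was 9.31, 8.49 and 7.84 after clean injury, and after pinching 8.58 and 8.20 on arrays 2 and 3 and above both on array 1. The signals of these genes after clean injury thus spanned the untreated range, and the *Mst* genes were picked from the testis list after their values were seen. Over all 21 testis markers the median log2 change was 0.31 after clean injury and 0.25 after pinching, with 16 and 19 markers above 0. None was called after clean injury. *fzo*, a mitochondrial fusion gene of the male germ line, was the 1 called higher after pinching (log2 change 0.62, adjusted p = 0.0249 from limma). With the block 2 and 3 of the 21 markers were higher, as were 1892 and 1426 of all 18769 probe sets. The per-array median of the 21 markers lay between 4.88 and 4.96 in untreated larvae, between 4.84 and 5.48 after clean injury and between 5.05 and 5.30 after pinching. The part of testis RNA in the values of the copies was not tested.

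**Figure D4:**
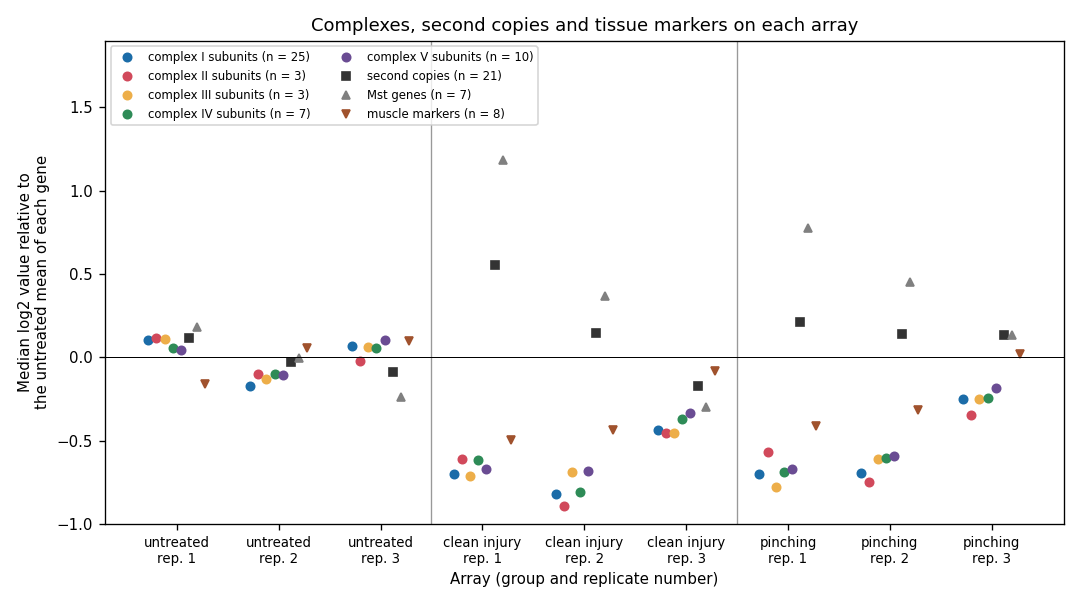
Median log2 signal of each set on each array, relative to the untreated mean of each gene, for the subunit genes of the 5 complexes (circles), the 21 second copies (squares), 7 *Mst* genes (grey triangles) and 8 muscle markers (brown triangles). The circles lie below 0 on all 6 injury arrays and are closest to 0 on the arrays numbered 3, the muscle markers are on the same side on 5 of the 6, and the squares and grey triangles are highest on clean injury array 1.

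Muscle markers had lower median signals after both injuries, by less than the subunit genes. The median over 8 measured muscle markers was 12.07, 12.25 and 12.30 on the untreated arrays, 11.52, 11.73 and 12.02 after clean injury, and 11.74, 11.79 and 12.16 after pinching, so that pinching array 3 overlapped with the untreated arrays. Their median log2 changes were -0.34 and -0.20, with ranges from -0.89 to 0.12 after clean injury and from -0.81 to 0.21 after pinching. *Act87E*, a larval muscle actin, was the 1 marker called lower in both comparisons (-0.62 and -0.45, adjusted p = 0.0122 and 0.0478 from limma), and with the block 4 were lower after clean injury and 2 after pinching. Of 4 fat body markers none was called, with median changes of 0.07 and 0.07. Of 8 midgut markers *thetaTry*, a trypsin gene, was lower in both comparisons (-0.99 and -0.99) and *alphaTry* was higher after clean injury (1.13), with median changes of -0.01 and 0.00. The part of tissue composition in the changes of the subunit genes was not tested.

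Several nuclear genes of the respiratory chain that carry other names were lower as well. From a list of 23 symbols of subunits and cytochrome c, 7 genes were measured. None of the listed subunits encoded in mitochondrial DNA was among them. Of the 7 genes 4 were lower after clean injury and 3 after pinching, with median log2 changes of -0.60 and -0.55, and with the block 6 were lower in each. These were *ox*, a small complex III subunit (-0.80 and -0.77), *blw*, the alpha subunit of ATP synthase (-0.62 and -0.55), *cype*, a complex IV subunit (-0.60 and -0.57), and, after clean injury, *Cyt-c1* (-0.75, with -0.69 and adjusted p = 0.0695 from limma after pinching). *RFeSP*, the Rieske iron-sulfur protein (-0.59 and -0.47), and *levy*, a complex IV subunit (-0.50 and -0.45), passed only with the block. The epsilon subunit gene *sun* had a dim signal of 4.21 in untreated larvae and changes of -0.01 and -0.08.

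Of 11 assembly factors 10 were measured, and they did not move as one. *Cox10*, which makes the heme group of complex IV (-1.02 and -1.10), *Cox17*, a copper chaperone (-0.84 and -0.83), and *Bcs1*, which acts on complex III (-0.76 and -0.78), were lower after both injuries. *Sirup*, an assembly factor of complex II like *Sdhaf3*, went the opposite way. Its mean log2 signal was 9.16 in untreated larvae, 10.70 after clean injury and 10.87 after pinching, with changes of 1.53 and 1.70, each with a standard error of 0.24 (limma, adjusted p = 0.00347 and 0.002). *Scox* (-0.52 and -0.58) and *Ttc19* (-0.54 and -0.61) passed only with the block, and *Surf1*, *CIA30*, *Cox11* and *sicily* did not pass with or without it. For the tricarboxylic acid cycle, which feeds complexes I and II, 8 genes were measured from a list of 20 symbols that includes older names of some genes. *mAcon1*, an aconitase (-0.72), and *Idh3b*, a subunit of isocitrate dehydrogenase (-0.62), were lower after clean injury and none was called after pinching, with medians of -0.49 and -0.33, while the block gave 6 and 3 lower genes.

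The count of calls depended on single arrays, whereas the median change against untreated larvae stayed below 0. When each array in turn was removed, the median log2 change of the 48 subunit genes stayed between -0.73 and -0.52 after clean injury and between -0.66 and -0.43 after pinching. The number of members called lower after clean injury fell from 33 to 5 without untreated array 1, to 6 without untreated array 3, to 7 without clean injury array 1 and to 4 without clean injury array 2. After pinching it went from 17 to 2 without untreated array 1, to 0 without untreated array 3, to 11 without clean injury array 1, to 5 without pinching array 1 and to 2 without pinching array 2, and rose to 38 without pinching array 3. Calls of a lower signal over all 18769 probe sets changed as well. In the same order they went from 926 to 412, 358, 392 and 327 after clean injury. For pinching they went from 937 to 433, 373, 772, 648, 545 and 973. *ND-13B*, *ND-B17.2*, *UQCR-6.4* and *Sdhaf3* were called lower after clean injury in each of the 9 fits.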

How the data were processed

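Total RNA of whole larvae was measured on 9 arrays, 3 per group. The deposited table gives a log2 value for each probe set on each array. The authors' methods name R, while how the probe signals were corrected, normalized and summarized was not given in the sources used here, so that a shift shared by most probe sets of an array would not be seen. The values were used as deposited.

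Of 18952 probe sets, 183 controls were left out. The fit used limma 3.58.1 in R 4.3.3 (functions lmFit, contrasts.fit and eBayes), with 1 mean for each group and all 9 arrays together. Tests were two-sided, p-values were adjusted by Benjamini-Hochberg over 18769 probe sets, and the prior had 4.25 degrees of freedom. This procedure was tested on simulated data. Further counts and the plots used Python 3.11.15, pandas 2.3.3, SciPy 1.17.1 and matplotlib 3.10.9. The annotation of the platform names 1 gene for 13647 probe sets, while 402 have several and 4720 are unnamed here. All 73 members matched the RefSeq table of Release 6 plus ISO1 MT by gene identifier, and 4 probe sets of these families shared with another gene were left out.

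The members and lists were chosen with earlier results of these data known. Genes were named in the text if called in a comparison, highest or lowest in a complex, on a list of core subunits, or a second copy, and if called on another list. The signal bound of 8 and the comparison of copies with subunits were set after values were seen.

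Arrays of all groups are numbered 1 to 3 in the labels. Arrays with the same number deviated from their group means together in all 9 pairs, with r from 0.189 to 0.548, and between -0.463 and 0.16 for other numbers, which is not independent since deviations sum to 0 within a group. The numbers were therefore taken to pair the arrays, an inference from these values that the labels do not state. The fit without the block stayed the main one. Alternatives were quantile normalization, centring on the median, leaving out the dimmest 40% of probe sets, an intensity trend with a robust prior, fitting 6 arrays at a time, the methods' t-test, averaging the probe sets of a gene, the replicate block and leaving out each array without a block.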

Additional observations from a re-analysis of the deposited data

How the results depend on the processing

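Values are given for the 73 genes. The number called lower after clean injury was 0 with the methods' t-test after Benjamini-Hochberg adjustment, against 33 in the fit reported. After pinching it was 47 with the replicate block, 7 with only the 6 arrays compared, 0 with the methods' t-test after adjustment and 30 with that test unadjusted, against 17. Over all 18769 probe sets the adjusted t-test called 36 lower after clean injury and 14 after pinching, against 926 and 937 in the fit reported. After pinching the block called 1645 of all probe sets lower, the fit of 6 arrays 579 and the unadjusted t-test 1715. The unadjusted t-test called 4 genes higher after pinching and 1 gene lower in pinching than in clean injury. Of all 18769 probe sets it called 1633 and 212 in these directions. Without 1 array the number lower ranged from 4 to 41 after clean injury and from 0 to 38 after pinching, the number higher from 0 to 2 and from 0 to 0, and between the injuries both numbers stayed at 0. Over all probe sets these fits called from 327 to 1225 lower after clean injury and from 373 to 1008 after pinching. Numbers higher ranged from 441 to 1266 and from 418 to 974. Median log2 changes of the 73 genes ranged from -0.65 to -0.45 and from -0.56 to -0.35, and between the injuries from -0.02 to 0.15. The median between the injuries changed sign without pinching array 3, and the medians against untreated larvae did not change sign under the alternatives run. The median of the 48 subunit genes was -0.61 and -0.47 after quantile normalization and -0.67 and -0.55 after centring each array. The block did not call any second copy or any difference between the injuries. The causes of these differences were not tested. Dim signals may be background, which limits what the dim subunit genes and second copies can show.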

Other observations

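Regulators and carriers of mitochondria showed fewer calls than the subunits, a difference that was not tested. From a list of 17 symbols, some of which may name the same gene, 13 genes were measured. Their median log2 changes were -0.17 after clean injury and -0.14 after pinching. *TFAM*, which packages and transcribes mitochondrial DNA (-0.49, adjusted p = 0.039 from limma), and *Sod2*, the superoxide dismutase of the matrix (-0.62, adjusted p = 0.0253 from limma), were lower after clean injury, with changes of -0.45 and -0.49 after pinching that did not pass (adjusted p = 0.0571 and 0.0661 from limma, or 0.0236 and 0.0136 with the replicate block). *mtSSB*, the binding protein of single-stranded mitochondrial DNA, was lower after pinching (-0.74, adjusted p = 0.036 from limma) and had a change of -0.60 after clean injury (adjusted p = 0.0715 from limma). With the block 3 of the 13 genes were lower after clean injury and 4 after pinching. The transcription factor gene *ewg* had changes of 0.81 and 0.55 that passed only with the replicate block (adjusted p = 0.00237 and 0.0194 from limma). The ATP/ADP carrier *sesB*, at a log2 signal of 13.13 in untreated larvae, had changes of -0.35 and -0.32 and did not pass.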
